A study of Mus musculus with 20 samples.

Results

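Actin, tubulin, keratin, myosin and septin genes build the cytoskeleton of the cell, and their log2 ratios were followed here in mouse hepatoma cells whose glutamine supply was switched off and on. The genes were chosen by symbol alone, from the platform annotation: actins and actin-related proteins, alpha-actinins, Arp2/3 subunits, cofilins, profilins, Capg and tropomyosins, myosin heavy and light chains, tubulins, stathmins and tau, keratins and vimentin, and septins. The rule found 109 genes, on 111 probes, of 15968 genes and unnamed probes on the array. It also took in Tubgcp2, a protein of the gamma-tubulin complex, and Actr6 and Actr8, actin-related proteins of the nucleus.

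Hepa1-6 is an established mouse hepatoma line, studied here at confluency. The varied flasks received medium with 0 mM glutamine at the start and at 48 h and medium with 4 mM glutamine at 24 h and 72 h, and the control flasks received 4 mM glutamine at every exchange. Both kept 25 mM glucose throughout, and the experiment lasted 96 h. RNA from varied flasks was labelled with Cy5 and RNA from control flasks with Cy3, and both were hybridised together on 20 spotted arrays that the labels assign to 11 numbered time points. The labels give neither the hour nor the glutamine level of a time point, except that for 1 array of time point 4 they name cells without glutamine. They do not say whether the second array of a time point, present at 9 of the 11, carried RNA of another flask or the same RNA again, so p-values among time points measure the spread between arrays, which may be technical.

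Each value is a log2 ratio relative to the median of its own array. A value above 0 means that the gene was likely higher in varied flasks than in control flasks. The direction rests on the dyes named in the labels and the base of the logarithm on the size of the values, since the deposited table states neither. No dyes were swapped, so a dye bias of a gene that is the same on every array cannot be told apart from a glutamine effect in a mean over time points, while it cancels in a difference between time points. A ratio carries no level, and a value for a hair or muscle gene does not show that the hepatoma cells expressed it. Spots of near-identical genes, as among tubulins, actins and keratins, can bind each other's transcripts.

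Actin filaments grow from monomers that profilin delivers, branch at the Arp2/3 complex and are severed by cofilin, and myosin motors pull on them. Microtubules are polymers of alpha- and beta-tubulin, and stathmins bind the free dimers. Keratins 8 and 18 form the intermediate filaments of hepatocytes, keratins 7 and 19 are typical of bile duct epithelium, and vimentin is typical of mesenchymal cells. Septins are GTP-binding proteins that assemble into filaments at the cell cortex.

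Some arrays and spots stood apart and were left out. The second arrays of time points 6 and 10 correlated with the first array of the same time point at only 0.0539 and -0.0168, against 0.518 to 0.691 at the 7 other time points with a pair. On the arrays of time points 5 and 6, spots whose probe number was the first in each run of 20 were raised, with medians of 2.72 and 1.28, and were set to missing. The spots after them were raised as well: 19 of the genes described here that sit at positions 2 to 4 and had a value at time point 5 had a median of 0.74 there, against 0.04 for the 41 others. The 18 arrays used held 4269 to 8269 values each, 43 to 71 of them from cytoskeletal genes. Precision is limited by how many arrays there are.

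Of the 109 genes, 80 had a value on at least 1 of the 18 arrays and 29 had none, among them 11 of 40 in the keratin and vimentin list, 11 of 19 myosins and 4 of 11 septins. The sources used here give no reason for an empty spot. Myl2 did have deposited values on 2 of the 18 arrays, but at the raised position, and they had been set to missing. The mean over time points could be tested for 48 genes, which needed a value at 9 time points or more. The differences among time points could be tested for 46, which needed a value on 12 of 14 arrays. Together 52 genes entered at least 1 of these tests, 35 of them passed at least 1 of the tests below, and 17 passed none. The remaining 28 had too few values: Acta1, skeletal muscle alpha-actin, lay between -1.46 and -0.20 on 6 arrays, and Krt18, the partner of keratin 8, between -0.54 and 0.34 on 9. Myl12b, a regulatory light chain of nonmuscle myosin, lay between -0.62 and -0.06 on 8 arrays, and Septin2 between -0.85 and -0.05 on 10. The highest single values, 2.89 for Septin4, 2.57 for Myh6, 2.39 for Krt12 and 2.17 for Actn3, all came from time point 5 and from the raised positions.

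**Figure D1:**
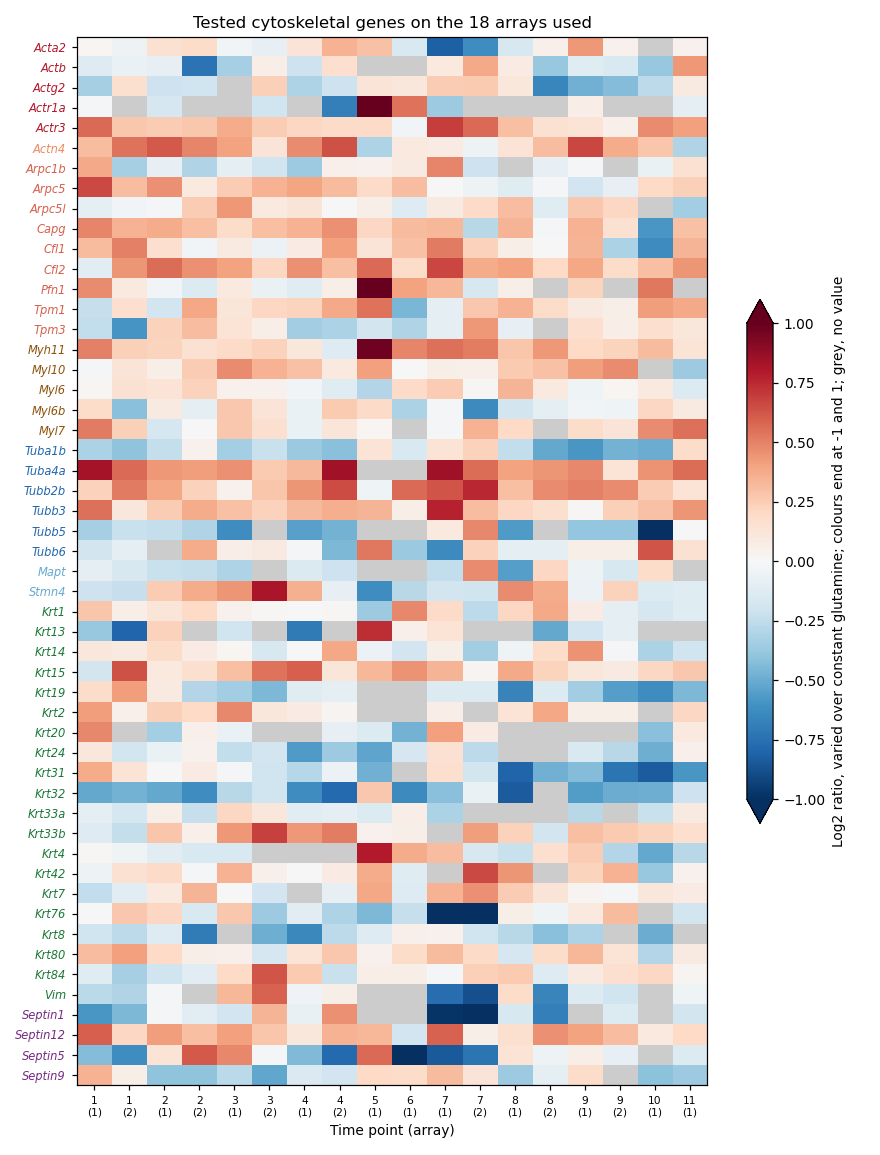
Centred log2 ratio of each of the 52 tested cytoskeletal genes (rows, grouped by role, which the label colours mark) on the 18 arrays used (columns, by time point and array). Red is higher and blue lower in varied flasks, and grey has no value. Time point 7 stands out as dark blue on both arrays for Krt76, Vim, Septin1 and Acta2. Septin5 is dark blue there as well, but it is also low on arrays of time points 1, 4 and 6.

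Averaged over the time course, 11 of 48 cytoskeletal genes were higher in varied flasks and 6 were lower (limma, Benjamini-Hochberg adjusted over all 4398 genes tested). These are 22.9% and 12.5% of the genes tested, close to the 21.2% and 12.2% called among all genes. The median of the mean log2 ratios was 0.04 for the cytoskeletal genes and 0.03 for all genes. Within the set, tubulin isotypes and keratins went both ways. Without centring, which leaves each used array at its deposited median of 0.12 to 0.435, the split became 33 higher and none lower. Over all genes it became 2946 higher and 69 lower in place of 931 and 536. Time points were treated as independent; whether neighbouring ones resemble each other was not tested, and if they do, the p-values of these means are too small.

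**Figure D2:**
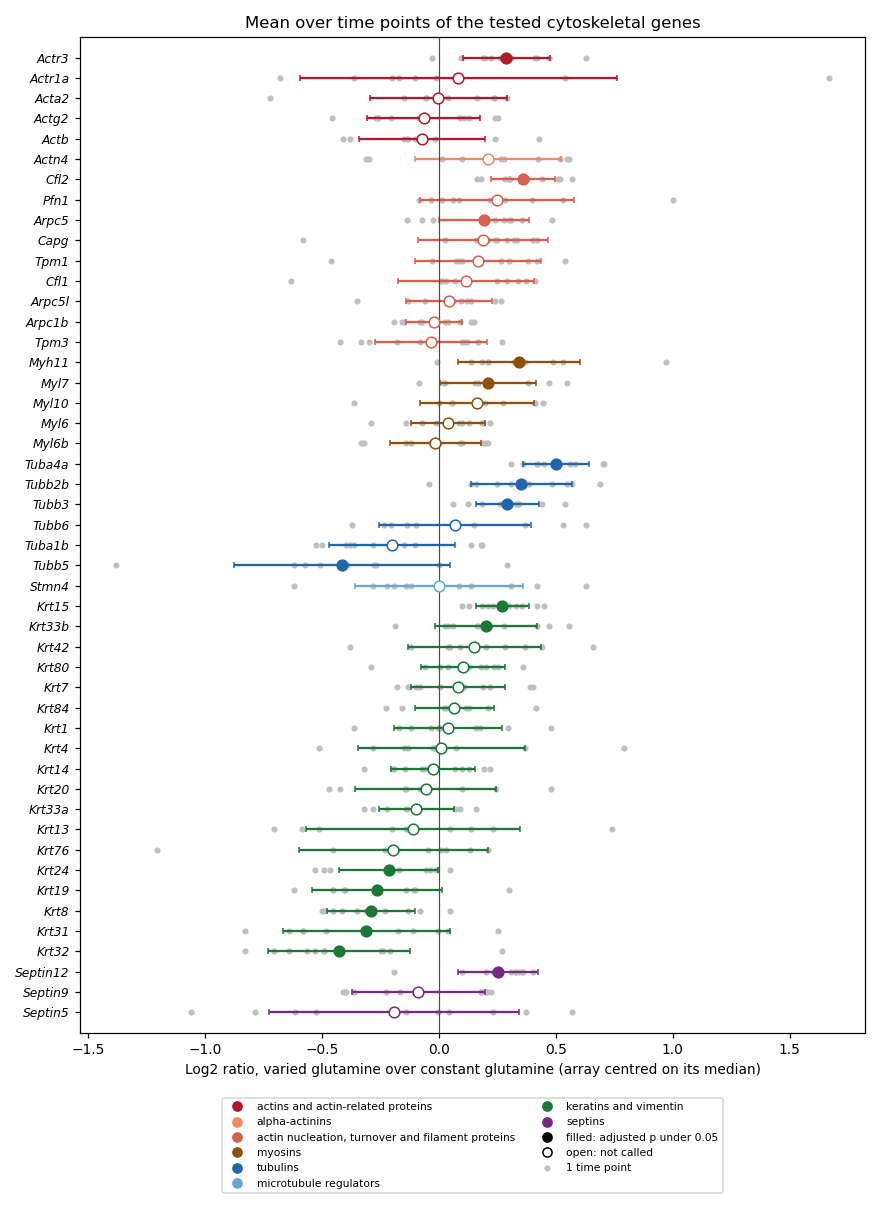
Mean centred log2 ratio over time points (large points) with its SD (bars) for the 48 genes tested, by role. Small grey points are single time points, and filled symbols passed an adjusted p of 0.05. Tuba4a, at 0.50 ± 0.14, is the highest mean and Krt32, at -0.42 ± 0.30, the lowest.

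Among the tubulins, 3 of 6 tested genes were higher and 1 was lower. Tuba4a, an alpha-tubulin, ranged from 0.14 to 0.85 over 16 arrays with a median of 0.46. Every array was above 0, and the mean was 0.50 ± 0.14 (SD, n = 9 time points, adjusted p = 7.57e-05). Its spot sits at the raised position, so time points 5 and 6 are missing. Tubb2b, a beta-tubulin, ranged from -0.04 to 0.75 over 18 arrays (median 0.42), with 1 array below 0. Its mean was 0.35 ± 0.22 (n = 11, adjusted p = 0.000998). Tubb3, the beta-tubulin best known from neurons, was above 0 on all 18 arrays, between 0.01 and 0.77, and averaged 0.29 ± 0.14 (n = 11, adjusted p = 0.000699).

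Tubb5, a beta-tubulin common in dividing cells, was lower, a call lost without centring. It ranged from -1.38 to 0.48 over 14 arrays with a median of -0.36, and its mean was -0.41 ± 0.46 (n = 9, adjusted p = 0.0229). Only the arrays of time point 7 were above 0, and time point 11 was at 0.00. The value of -1.38 at time point 10 came from 1 array, and the left-out second array of that time point had -0.33. Without centring the mean was -0.13 (adjusted p = 0.364). The call of Tubb5 was lost without time point 3, 4 or 8 (adjusted p 0.0501 to 0.0528), although the mean stayed between -0.50 and -0.29. Tuba1b, the widely expressed alpha-tubulin, averaged -0.20 ± 0.27 (n = 11, adjusted p = 0.0550), and Tubb6 averaged 0.07 ± 0.32; neither passed.

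**Figure D3:**
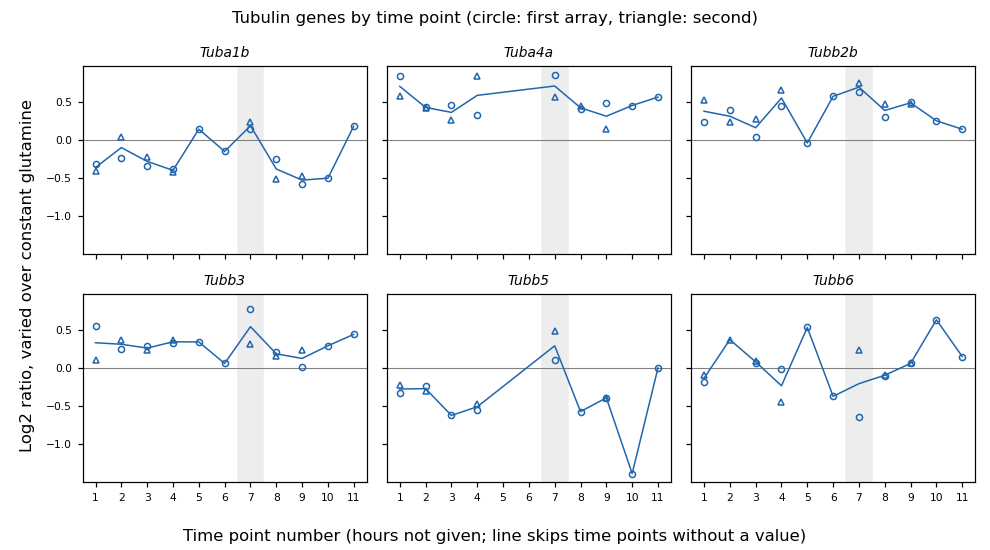
Centred log2 ratio of the 6 tested tubulin genes by time point number. Circles are first arrays, triangles second arrays, and lines join the time-point means; the grey band marks time point 7. Tuba4a and Tubb3 stay above 0 throughout, and Tubb5 and Tuba1b are above 0 at time point 7 and below 0 at time points 4 and 8.

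For actin nucleation and turnover, 3 genes were higher and none lower, of 5 actins and actin-related proteins and 9 nucleation, turnover and filament proteins tested. Cfl2, cofilin 2, ranged from -0.11 to 0.67 over 18 arrays with a median of 0.40, and 1 array was below 0. It averaged 0.36 ± 0.14 (n = 11, adjusted p = 0.000164). Actr3, the Arp3 subunit of the Arp2/3 complex, ranged from -0.03 to 0.69 (median 0.26) and averaged 0.29 ± 0.19 (n = 11, adjusted p = 0.00218), again with 1 array below 0. Arpc5, another Arp2/3 subunit, ranged from -0.19 to 0.66 (median 0.22) and averaged 0.19 ± 0.19 (n = 11, adjusted p = 0.0240). This call was lost without time point 1, 2, 3 or 4 (adjusted p 0.0505 to 0.0569) and with all 20 arrays (mean 0.14, adjusted p = 0.162) or centring by block of probe numbers (mean 0.09, adjusted p = 0.156). The other subunits tested, Arpc1b at -0.02 ± 0.12 and Arpc5l at 0.04 ± 0.18, did not pass.

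Other actin and filament genes did not pass in the mean. Actb, cytoplasmic beta-actin, ranged from -0.74 to 0.43 over 16 arrays and averaged -0.07 ± 0.27 (n = 9, adjusted p = 0.531). Cfl1, the nonmuscle cofilin, averaged 0.12 ± 0.29, and Pfn1, profilin 1, averaged 0.25 ± 0.33 (n = 10, adjusted p = 0.0512), with 1.00 at time point 5, where its spot lies in a raised position. Capg, which caps filament ends, averaged 0.19 ± 0.28 (adjusted p = 0.0748): 16 of its 18 values lay between -0.02 and 0.49, and those of the second array of time point 7 and of time point 10 were -0.28 and -0.58. Tpm1 and Tpm3, tropomyosins that run along the filament, averaged 0.17 ± 0.27 and -0.03 ± 0.24. Actn4, a nonmuscle alpha-actinin that crosslinks filaments, averaged 0.21 ± 0.31 (adjusted p = 0.0663).

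Of 5 myosin genes tested, 2 were higher and none lower. Myh11, the smooth muscle heavy chain, ranged from -0.13 to 0.97 over 18 arrays (median 0.24) and averaged 0.34 ± 0.26 (n = 11, adjusted p = 0.00283). The highest value was that of time point 5, where the Myh11 spot lies in a raised position. With these positions blanked at time points 5 and 6, a check added after seeing the data, Myh11 averaged 0.26 (adjusted p = 0.0048), Cfl2 0.36 (adjusted p = 0.000271) and Krt32 -0.48 (adjusted p = 0.000166). Myl7, the atrial regulatory light chain, ranged from -0.17 to 0.55 over 16 arrays and averaged 0.21 ± 0.20 (n = 10, adjusted p = 0.0251), a call lost without time point 1, 10 or 11 (adjusted p 0.0564 to 0.0606). Myl6 and Myl6b, essential light chains, averaged 0.04 ± 0.16 and -0.01 ± 0.20.

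In the keratin and vimentin list, 18 genes were tested, of which 2 were higher and 5 lower; without centring none of the 5 was called lower. Krt8, the hepatocyte keratin, ranged from -0.70 to 0.05 over 15 arrays (median -0.26), with 2 arrays above 0. It averaged -0.29 ± 0.19 (n = 10, adjusted p = 0.00341). Its mean was -0.03 without centring (adjusted p = 0.692) and -0.08 with each block of probe numbers centred by itself (adjusted p = 0.281), so its call depends on the centring. Krt32, a hair keratin, was the lowest of the set: it ranged from -0.83 to 0.27 over 17 arrays (median -0.50), was above 0 only at time point 5, and averaged -0.42 ± 0.30 (n = 11, adjusted p = 0.00141). Without centring it averaged -0.17 and no longer passed (adjusted p = 0.0596).

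Krt19, Krt24 and Krt31 were lower, although Krt19 and Krt24 stood just above 0 without centring. Krt19, the bile duct keratin, averaged -0.26 ± 0.28 (n = 9, adjusted p = 0.0290), but its mean was 0.021 without centring and 0.16 with all 20 arrays and every spot. Krt31, a hair keratin, averaged -0.31 ± 0.36 (n = 10, adjusted p = 0.0251), and -0.04 without centring (adjusted p = 0.732). Krt24 averaged -0.21 ± 0.21 (n = 10, adjusted p = 0.0262), and 0.024 without centring. Leaving out time point 3, 8, 9, 10 or 11 ended the call of Krt19 (adjusted p 0.0643 to 0.0707), time point 8, 9, 10 or 11 that of Krt31 (adjusted p 0.0577 to 0.0632), and time point 4 or 10 that of Krt24 (adjusted p 0.0591 to 0.0685). The mean of each gene stayed below 0 in these fits. Krt24 has a pair of probes, which read -0.55 and 0.21 at time point 6, -0.13 and 0.43 on the first array of time point 7, and -0.82 and -0.16 at time point 10, so they disagreed there in size or sign.

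Krt15 and Krt33b were higher. Krt15, a keratin of basal epithelial cells, ranged from -0.18 to 0.64 over 18 arrays (median 0.25), with 1 array below 0, and averaged 0.27 ± 0.11 (n = 11, adjusted p = 0.000761), the smallest SD of the 17 genes called. With all 20 arrays it averaged 0.15 and did not pass (adjusted p = 0.368); the left-out second array of time point 10 had -2.32. Krt33b, a hair keratin, ranged from -0.24 to 0.68 over 17 arrays and averaged 0.20 ± 0.22 (n = 11, adjusted p = 0.0284); that call was lost without time point 3, 4, 7 or 9 (adjusted p 0.0570 to 0.0717). The genes of Krt15, Krt19, Krt24, Krt31, Krt32 and Krt33b all lie on chromosome 11, so neighbours of 1 keratin cluster had centred means of opposite sign. Without centring, Krt19 and Krt24 averaged 0.02 each, Krt31 -0.04 and Krt32 -0.17, and none of them was called lower. Krt33a, the near copy of Krt33b, averaged -0.10 ± 0.16 (n = 10, adjusted p = 0.226), and spots of these copies may not be told apart.

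Of 3 septins tested in the mean, Septin12, known from the testis, was higher. It ranged from -0.19 to 0.60 over 18 arrays (median 0.31), with 1 array below 0, and averaged 0.25 ± 0.17 (n = 11, adjusted p = 0.0039). With all 20 arrays it averaged 0.18 (adjusted p = 0.169). The other Septin12 probe had no value on any array. Septin5 averaged -0.19 ± 0.53 and Septin9 -0.09 ± 0.28. Among the microtubule regulators only Stmn4, stathmin-like 4, could be tested in the mean, at 0.00 ± 0.36.

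Differences among time points are free of a constant dye bias. Among the 7 time points with 2 usable arrays, 14 of 46 cytoskeletal genes differed, which is 30.4%, beside 14.2% (525 of 3697) of all genes (moderated F-test in limma, adjusted over all genes). They were Krt76, Septin5, Septin1, Vim, Acta2, Krt31, Stmn4, Tubb5, Septin9, Tpm3, Krt19, Krt33b, Actg2 and Arpc5, in order of p. Tubb5, Krt19, Krt31, Krt33b and Arpc5 were also called in the mean; the other 9 were not, and of these Vim and Septin1 had too few time points for that test. Septins made up 3 of the 14 with 4 tested, and no myosin or alpha-actinin was among them.

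**Figure D4:**
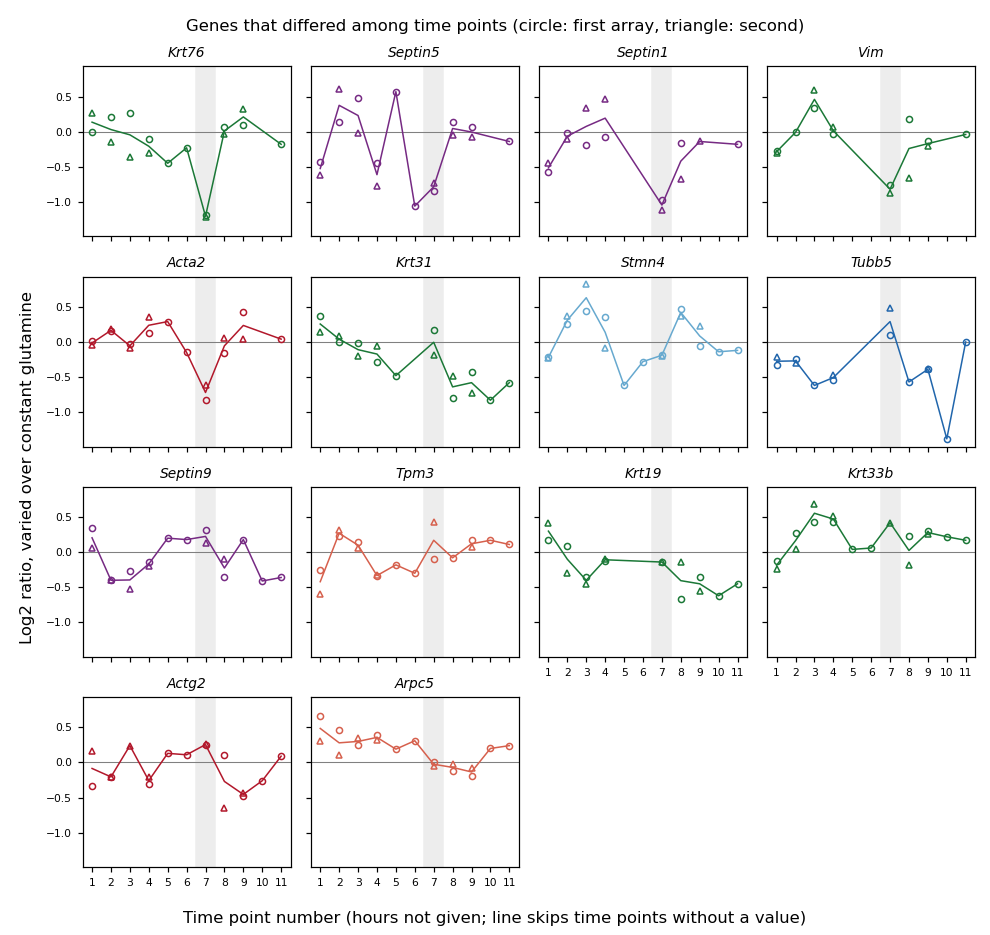
Centred log2 ratio by time point number for the 14 genes that differed among time points, in order of p. Circles are first arrays, triangles second arrays, lines join the time-point means, and the grey band marks time point 7. Krt76, Septin1, Vim and Acta2 have their lowest means at time point 7, from -1.21 to -0.72.

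Promoter sequences are given for 4 genes that moved at time point 7, a pair that was lower and a pair that was higher there. RefSeq promoters (GRCm38.p6) were found for 78 of the 109 genes in 95 entries, and the 250 bases before the start were searched on both strands for the GC box GGGCGG, for the TATA box TATAAA, for the CCAAT box by its letters CCAAT, and for the CArG box, the site of serum response factor. Capitals mark every match, on either strand, in the sequences of Vim (chr2:13574061-13574310, + strand), Krt76 (chr15:101892921-101893170, - strand), Tuba1b (chr15:98934391-98934640, - strand) and Tubb5 (chr17:35838302-35838551, - strand), each written 5′ to 3′ along the gene.
Vim: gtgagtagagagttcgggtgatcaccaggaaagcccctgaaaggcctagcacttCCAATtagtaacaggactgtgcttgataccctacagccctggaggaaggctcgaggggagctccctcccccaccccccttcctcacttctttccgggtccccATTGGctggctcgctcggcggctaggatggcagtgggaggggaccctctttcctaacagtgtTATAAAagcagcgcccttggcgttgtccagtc
Krt76: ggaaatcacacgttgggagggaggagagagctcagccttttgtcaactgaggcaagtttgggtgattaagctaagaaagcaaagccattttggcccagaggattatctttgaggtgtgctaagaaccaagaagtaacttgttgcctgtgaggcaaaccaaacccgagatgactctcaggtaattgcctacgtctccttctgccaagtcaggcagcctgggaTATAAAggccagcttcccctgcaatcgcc
Tuba1b: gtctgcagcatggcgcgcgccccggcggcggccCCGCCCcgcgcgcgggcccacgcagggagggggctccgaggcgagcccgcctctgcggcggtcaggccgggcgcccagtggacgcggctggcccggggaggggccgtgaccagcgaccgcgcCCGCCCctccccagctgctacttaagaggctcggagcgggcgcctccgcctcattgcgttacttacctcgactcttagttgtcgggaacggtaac
Tubb5: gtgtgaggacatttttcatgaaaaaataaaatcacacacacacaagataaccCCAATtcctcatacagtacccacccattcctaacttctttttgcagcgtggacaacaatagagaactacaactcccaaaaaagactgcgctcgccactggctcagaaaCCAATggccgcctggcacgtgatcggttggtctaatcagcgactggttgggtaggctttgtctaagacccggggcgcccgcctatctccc

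Vim and Krt76, lower at time point 7, each have 1 TATAAA, starting 32 and 29 bases before the start of the gene. Tuba1b and Tubb5, higher there, have none. Tuba1b has 2 matches to GGGCGG, and Tubb5 and Vim have 2 each to CCAAT. Septin9, also higher there, has 4 promoter entries, of which none holds TATAAA, 2 hold GGGCGG and 1 holds CCAAT. Of the 6 genes lower at time point 7, only 3 have a promoter entry: Vim, Krt76 and Acta2. Acta2 has no exact match to any of these motifs in its window. The CArG box was searched only as CC, 6 letters A or T, and GG, so a site with another letter would be missed. TATAAA was in 12.4% of all 32851 promoter entries and in 22.1% of those of the cytoskeletal genes, GGGCGG in 32.7% and 33.7%, and CCAAT in 33.8% and 38.9%. The CArG box was in 1.47% of all entries and 6.32% of the cytoskeletal ones, with 6 genes: Acta1, Arpc4, Krt12, Myl3, Myl6 and Myl7. Of these, Myl6 and Myl7 had enough values for the mean. A match is a description of these letters, not a bound site, and the lack of a match does not show that a site is absent.

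The widest swings centred on time point 7. Krt76, a keratin of the oral epithelium, had 0.27 and -0.36 at time point 3, then -0.11 and -0.31 at time point 4, then -1.19 and -1.22 at time point 7, then 0.06 and -0.04 at time point 8, and 0.10 and 0.32 at time point 9. Both arrays of time point 7 lay below the 15 other arrays, the lowest of which was -0.45. The gene differed among time points (adjusted p = 1.49e-08), with a step of -1.08 ± 0.17 (SE) from time points 3 and 4 to time point 7 (adjusted p = 3.05e-07) and of 1.32 ± 0.17 from time point 7 to time points 8 and 9 (adjusted p = 7.45e-10). These 2 steps share the arrays of time point 7 and are not independent.

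Vim had 0.33 and 0.59 at time point 3, then -0.04 and 0.06 at time point 4, then -0.76 and -0.88 at time point 7, then 0.18 and -0.66 at time point 8, and -0.14 and -0.20 at time point 9. Time point 7 was again below the 12 other arrays, but the second array of time point 8 came close to it. The step to time point 7 was -1.06 ± 0.17 (adjusted p = 6.98e-07), and that from time point 7 to time points 8 and 9 was 0.62 ± 0.17 (adjusted p = 0.00877). Without the second array of time point 7 or the first of time point 8 the second step was no longer called (adjusted p 0.0866 to 0.169). Vim is also the only cytoskeletal gene called higher at 1 time point, with 0.46 ± 0.14 (SE) at time point 3, and lower at another, with -0.82 ± 0.14 at time point 7.

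Acta2, smooth muscle alpha-actin, had -0.03 and -0.08 at time point 3, then 0.13 and 0.35 at time point 4, then -0.82 and -0.62 at time point 7, then -0.16 and 0.05 at time point 8, and 0.43 and 0.04 at time point 9. Time point 7 lay below the 15 other arrays, whose lowest value was -0.16. The step to time point 7 was -0.81 ± 0.17 (adjusted p = 0.000102) and the following one 0.81 ± 0.17 (adjusted p = 0.000142). Its mean over the course was -0.00 ± 0.29. Actg2, the enteric smooth muscle actin, did the opposite after time point 7: it had 0.25 and 0.26 there, and 0.11 and -0.65 at time point 8 and -0.48 and -0.43 at time point 9. That step was -0.62 ± 0.17 (adjusted p = 0.00863), and it was no longer called without either array of time point 7 or without the second array of time point 8 (adjusted p 0.0505 to 0.152).

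Septin1 had -0.19 and 0.34 at time point 3, then -0.08 and 0.46 at time point 4, then -0.98 and -1.11 at time point 7, then -0.16 and -0.68 at time point 8, and -0.14 on the 1 array of time point 9 with a value. Both arrays of time point 7 lay below the 12 others. Tested against 0, Septin1 was also lower at time point 1, with -0.58 and -0.45 (adjusted p = 0.0052), a call lost without centring (adjusted p = 0.14). The step to time point 7 was -1.18 ± 0.17 (adjusted p = 3.73e-08), the widest of the set in that direction, and the one after it 0.77 ± 0.19 (adjusted p = 0.00201). Septin5 had -0.84 and -0.73 at time point 7, but was also low at time point 1, with -0.43 and -0.62, at time point 4, with -0.45 and -0.78, and at time point 6, with -1.06 on 1 array. At time point 2 it had 0.14 and 0.61. Its step to time point 7 was -0.59 ± 0.17 (adjusted p = 0.00879), lost without the first array of time point 3, 4 or 7 (adjusted p 0.0535 to 0.105), and its step after it 0.81 ± 0.17 (adjusted p = 0.000225). Over all 9 time points with 2 arrays neither step passed (adjusted p = 0.149 and 0.0591). Septin9 moved against these, with 0.32 and 0.13 at time point 7, against -0.27 and -0.52 at time point 3 and -0.15 and -0.19 at time point 4. That step of 0.51 ± 0.17 (adjusted p = 0.0281) was lost without the second array of time point 3 or 4 or the first of time point 7 (adjusted p 0.0552 to 0.255).

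Both tubulins that were low for most of the course rose at time point 7. Tubb5 had -0.62 on 1 array of time point 3, -0.55 and -0.47 at time point 4, then 0.10 and 0.48 at time point 7, -0.57 on 1 array of time point 8, and -0.39 on both of time point 9. Time point 7 lay above the 12 other arrays. The steps were 0.85 ± 0.18 to time point 7 (adjusted p = 0.000163) and -0.77 ± 0.18 after it (adjusted p = 0.00111). Tuba1b had 0.14 and 0.23 at time point 7, against -0.34 and -0.22 at time point 3 and -0.38 and -0.42 at time point 4, a step of 0.52 ± 0.17 (adjusted p = 0.0203). It then had -0.25 and -0.51 at time point 8 and -0.58 and -0.47 at time point 9, a step of -0.64 ± 0.17 (adjusted p = 0.00409). Without the second array of time point 7, the later step was lost for both genes (adjusted p = 0.0863 for Tubb5 and 0.0603 for Tuba1b) and the F-test for Tubb5 (adjusted p = 0.229). The earlier step of Tuba1b was lost without either array of time point 7 or the first of time point 3 (adjusted p 0.0692 to 0.128). Over all 7 time points Tuba1b did not pass (adjusted p = 0.0538). Outside these 7, it had 0.14 at time point 5 and 0.18 at time point 11, so its time point 7 did not lie above all other arrays.

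**Figure D5:**
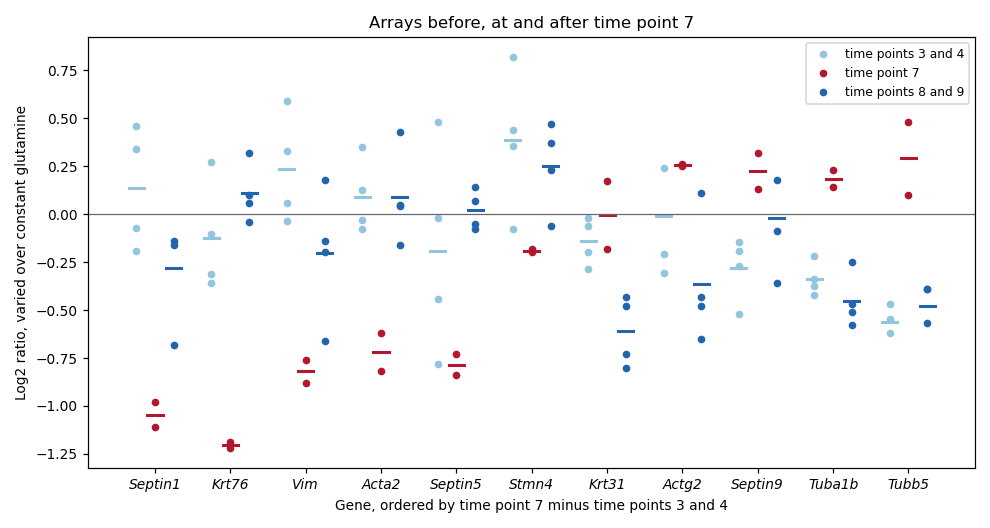
Centred log2 ratio on each array of time points 3 and 4 (light blue), 7 (red) and 8 and 9 (dark blue) for the 11 genes with a called step into or out of time point 7; bars are means of time-point means. For Septin1, Krt76, Vim, Acta2 and Stmn4, both arrays of time point 7 lie below every other array shown for that gene. For Tubb5, Tuba1b and Actg2 both lie above, for Actg2 only narrowly.

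In all, 6 of 46 cytoskeletal genes were lower and 3 higher at time point 7 than at time points 3 and 4, beside 9.55% lower and 3.30% higher among all genes. For the cytoskeletal genes these are 13.0% and 6.52%, and their median step was 0.10, against -0.02 for all genes. From time point 7 to time points 8 and 9, 5 were higher and 4 lower, which is 10.9% and 8.70%, beside 7.30% and 2.41% of all genes (9.71% in either direction). The sixth gene lower at time point 7 was Stmn4, with -0.18 and -0.20 there, against 0.44 and 0.82 at time point 3 and 0.36 and -0.08 at time point 4. Time point 7 was not its lowest, since Stmn4 had -0.21 and -0.23 at time point 1, -0.62 at time point 5 and -0.28 at time point 6. Its step of -0.57 ± 0.17 (adjusted p = 0.0105) was lost without either array of time point 7, the second of time point 3 or the first of time point 4 (adjusted p 0.0577 to 0.0896).

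The other called genes followed other courses. Krt31 had 0.37 and 0.14 at time point 1, then 0.00 and 0.08 at time point 2, then -0.02 and -0.20 at time point 3, then -0.29 and -0.06 at time point 4, then 0.17 and -0.18 at time point 7, then -0.80 and -0.48 at time point 8, and -0.43 and -0.73 at time point 9, followed by -0.83 and -0.58 on the arrays of time points 10 and 11. The step from time point 7 to 8 and 9 was -0.61 ± 0.17 (adjusted p = 0.00814), lost without the first array of time point 7 or 8 or the second of time point 9 (adjusted p 0.0501 to 0.25). From time points 3 and 4 to 8 and 9, Krt31 was the only cytoskeletal gene called, with a step of -0.47 ± 0.14 (adjusted p = 0.0422) that was lost in 9 of 14 fits leaving out 1 array. Of all genes, 2.30% were called in that step, 0.920% lower and 1.38% higher. Krt19 had 0.18 and 0.42 at time point 1 and was below 0 on every array from time point 3 on (adjusted p = 0.0218 among time points, lost without either array of time point 1 or the second of time point 9, adjusted p 0.052 to 0.198). Krt33b had 0.43 and 0.68 at time point 3 and 0.44 and 0.51 at time point 4, against -0.13 and -0.24 at time point 1 and 0.28 and 0.05 at time point 2. This was the only cytoskeletal gene called in that step, by 0.52 ± 0.14 (adjusted p = 0.0369), beside 0.893% of all genes, 0.352% higher and 0.541% lower, and the call was lost in 6 of 13 fits leaving out 1 array.

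Arpc5 had 0.66 and 0.31 at time point 1, then 0.46 and 0.10 at time point 2, then 0.25 and 0.35 at time point 3 and 0.40 and 0.32 at time point 4. It had 0.00 and -0.05 at time point 7, then -0.12 and -0.02 at time point 8, and -0.19 and -0.08 at time point 9, so all 8 arrays of the first 4 time points lay above all 6 of the later 3. Time points 10 and 11 were at 0.20 and 0.24. The adjusted p among time points was 0.0472 and was above 0.05 in 9 of 14 fits leaving out 1 array (0.0607 to 0.135). Tpm3 had 0.23 and 0.31 at time point 2, against -0.25 and -0.59 at time point 1 (adjusted p = 0.018), a call lost without either array of time point 2 or the second of time point 1 (adjusted p 0.0509 to 0.121). Actg2 among time points (adjusted p = 0.0391) was lost in 8 of 13 such fits (adjusted p 0.0501 to 0.075), and Krt33b (adjusted p = 0.0282) in 4 of 13 (adjusted p 0.0592 to 0.131).

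At single time points, a gene was compared with 0 on the arrays of that time point. All shares in brackets are of all genes. Among the 46 genes, 11 were higher and 5 lower at time point 1 (16.5% and 5.25%, 21.7% together). Time point 2 had 2 higher and 1 lower (2.62% and 1.46%, 4.08% together), time point 3 had 6 and 3 (8.09% and 4.06%, 12.1%), and time point 4 had 7 and 5 (16.6% and 8.30%, 24.9%). Time point 7 had 9 higher and 5 lower (15.9% and 12.7%, 28.6%), time point 8 had 2 and 2 (3.79% and 3.03%, 6.82%), and time point 9 had 3 and 6 (5.52% and 4.87%, 10.4%). Of these 67 calls, 40 were higher and 27 lower; without centring the split was 199 and 8. When each array was left out in turn, 55 of the 67 were lost at least once.

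Genes called at several time points included both genes called in the mean and genes that were not. Krt32 was lower at 5 of the 7 time points, on a single array at time point 8. Without centring its calls at time points 1, 2 and 9 did not hold (-0.24, -0.28 and -0.29, adjusted p = 0.112, 0.0633 and 0.0611). Tuba4a and Tubb2b were higher at 4 each, with 0.71 ± 0.14 (SE) and 0.69 ± 0.14 at time point 7, and Cfl2 at 3, with 0.52 ± 0.14 at time point 7. Actn4, not called in the mean, was higher at 4, namely time points 1, 2, 4 and 9, where it had 0.43, 0.55, 0.56 and 0.52 (± 0.14 each). At time point 7 it had 0.08 and -0.05. Tuba1b, Tubb5 and Septin5 were lower at 3 time points each, but without centring none of these calls of Tuba1b and Tubb5 held, nor those of Septin5 at time points 1 and 4. Tuba1b then had -0.11, 0.020 and -0.29 at time points 1, 4 and 9, and Tubb5 -0.33, on 1 array, -0.09 and -0.15 at time points 3, 4 and 9. Septin5 had -0.28 and -0.20 at time points 1 and 4. Actr3 reached 0.63 ± 0.13 and Myh11 0.53 ± 0.13 at time point 7, and Tubb3 was called there only, with 0.54 ± 0.14. Capg (time points 1 and 4), Cfl1 (1 and 7), Myl10 (3 and 9) and Stmn4 (3 and 8) were each higher at 2. Krt7, Krt42, Krt80 and Krt84 were higher at 1 each, Krt42 on a single array of time point 7, and Krt7 with 0.41 ± 0.14 there.

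Other cytoskeletal genes were read from further lists, 1 of which, the microtubule proteins, also holds Tubgcp2, a gene of the symbol rule that could not be tested. The counts in the mean stand beside 21.2% higher and 12.2% lower among all genes. Of 23 other actin regulators tested, 3 were higher and 1 lower in the mean. They were Cnn1, calponin 1, at 0.57 ± 0.53 (adjusted p = 0.00427), Myo10, an unconventional myosin, at 0.25 ± 0.16 (adjusted p = 0.00724), Swap70 at 0.17 ± 0.18 (adjusted p = 0.0413), and Vil1, villin of epithelial brush borders, at -0.33 ± 0.21 (adjusted p = 0.00116). Of 20 other microtubule proteins, 4 were higher, led by Pcnt, pericentrin of the centrosome, at 0.46 ± 0.47 (adjusted p = 0.00906), followed by Ttl, tubulin tyrosine ligase, at 0.28, the kinesin Kif3a at 0.24 and the dynein light chain Dynll1 at 0.20; the mitotic kinesin Kif11 was lower, at -0.17 (adjusted p = 0.0372). Of 10 lamins, other intermediate filament and desmosome genes, 3 were higher and 2 lower, with Dsc2, a desmosomal cadherin, at 0.46 ± 0.17 (adjusted p = 6.80e-05) and Evpl, envoplakin, at -0.37 ± 0.36 (adjusted p = 0.00761). The others were the plakophilins Pkp2 at 0.29, Pkp4 at 0.23 and Pkp3 at -0.31.

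At time point 7, 1 of 20 other actin regulators tested was higher and 2 were lower, 2 of 12 other microtubule proteins were lower, and 3 of 9 lamin, intermediate filament and desmosome genes were lower, beside 3.30% higher and 9.55% lower among all genes. The steps from time points 3 and 4 were -1.69 ± 0.17 for Lmnb1, lamin B1 of the nuclear envelope (adjusted p = 1.08e-14), and -1.62 ± 0.17 for Mapre3, a microtubule end-binding protein (adjusted p = 3.51e-14). Both exceeded the widest step of any gene of the symbol rule. Tmsb10, a thymosin that binds actin monomers, rose by 0.59 on the log2 scale (adjusted p = 0.0101). The other actin regulators that fell were Cnn3, calponin 3, by 0.51 (adjusted p = 0.0283) and Pls3, plastin 3, by 0.56 (adjusted p = 0.0154). The kinesin Kif5a fell by 0.56 (adjusted p = 0.0152), the neurofilament gene Nefm by 0.60 (adjusted p = 0.00991) and Pkp3 by 0.54 (adjusted p = 0.0191). These were singled out after their values were seen.

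Of the targets and partners of serum response factor, a regulator of actin genes, 3 of 8 tested were higher in the mean and none lower, beside 21.2% and 12.2% of all genes: Cnn1, Fos at 0.26 ± 0.34 (adjusted p = 0.0395) and Srf itself at 0.20 ± 0.21 (adjusted p = 0.0263). The actins of that list, Acta2, Actb and Actg2, did not pass in the mean.

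Markers of liver cells and of other cell types were read beside these results. Of 10 hepatocyte or hepatoma markers on the array, 8 had a value and 6 were tested: Alb, albumin, averaged -0.59 ± 0.21 (adjusted p = 8.05e-05), Apoe -0.34 ± 0.44 (adjusted p = 0.0315) and Fgb -0.27 ± 0.34 (adjusted p = 0.0338), and none was higher. Ratios cannot show whether a marker is present, so the labelled cell type could not be checked by level. Of the stellate cell or fibroblast markers, Vim and Acta2 themselves fell at time point 7, while Col1a2 had a step of -0.04 ± 0.17 (adjusted p = 0.910) and Dcn one of -0.37 ± 0.17 (adjusted p = 0.138). In the mean, Col1a2 was higher at 0.21 ± 0.09 and Pdgfrb lower at -0.29 ± 0.35. Krt19 was the 1 of 3 tested cholangiocyte markers that passed, and Kdr, the 1 endothelial marker tested, was higher at 0.21 ± 0.17 (adjusted p = 0.0233). None of 3 macrophage markers had a value. Of 9 skeletal or heart muscle markers, 4 had values and none could be tested. The part of other cells in these results was not tested.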

How the data were processed

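The authors deposited 1 table of log2 ratios for 20 two-colour arrays, with control RNA in Cy3 and RNA of varied flasks in Cy5, per the labels; the base, the sign and any normalization are not stated in these sources. The table holds no intensities. Genes were named by the platform annotation (all 111 probes matched a reference gene), and probes of a gene were averaged. Each array was centred on its median. With limma 3.58.1 (R 4.3.3), time-point means were tested against 0 (9 of 11 time points or more), and a model of 7 time points with 14 arrays (12 or more with a value) gave the moderated F-test, single time points and steps; Benjamini-Hochberg adjustment ran over all genes, threshold 0.05. The fits were tested on simulated data.

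The members, lists, left-out arrays and named genes were chosen with earlier results of these data known. Every member that passed a test is named, and of other lists up to 4 genes called in the mean, by size; Kif11, Pkp4 and the genes called at time point 7 were added after their values were seen. Second-array marks are not known to pair arrays. In 21 pairs of time points their deviations correlated between -0.43 and 0.33, with 6 over 0.1, which does not settle it. Alternatives covered arrays, spots, centring, value minimum, probes, blocks and left-out arrays. Figures were drawn with matplotlib 3.10.9. One gene list is not reported here.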

Additional observations from a re-analysis of the deposited data

Results flagged for a closer look

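The test of differences among time points called 14 cytoskeletal genes, whose ratios of varied over control flasks differed between the 7 time points compared. By adjusted p (limma, 2 arrays at a time point) they were Krt76 (1.49e-08), Septin5 (1.48e-07), Septin1 (2.70e-06), Vim (3.38e-05), Acta2 (0.000436), Krt31 (0.00065), Stmn4 (0.0016), Tubb5 (0.00436), Septin9 (0.00765), Tpm3 (0.018), Krt19 (0.0218), Krt33b (0.0282), Actg2 (0.0391) and Arpc5 (0.0472). Leaving out 1 array ended the call at least once for 6 of them: Tubb5, Tpm3, Krt19, Krt33b, Actg2 and Arpc5. Over all 9 time points with 2 arrays, Krt31 (adjusted p = 0.365), Septin9 (0.0997), Stmn4 (0.0842), Tpm3 (0.143), Krt33b (0.459), Actg2 (0.512) and Arpc5 (0.42) did not pass. Septin1, Vim, Krt19 and Tubb5 could not be fitted there, since their spots sit at the raised position and had been set to missing at time point 6. This was done on its second array too, where spots at that position had a median of 0.04. The lowest of the 7 means was at time point 7 for Krt76, Septin5, Septin1, Vim and Acta2, and the highest was there for Tubb5, Septin9 and Actg2. The hour and the glutamine level of time point 7 are not given by the labels, and the causes of these differences were not tested.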

How the results depend on the processing

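Actr3, Cfl2, Myh11, Tuba4a, Tubb2b and Tubb3 in the mean, and Acta2, Krt76, Septin1, Septin5 and Vim among time points, passed under every alternative in which they could be fitted. Septin1 and Vim could not be fitted over all 9 time points with 2 arrays. In that fit, Acta2, Krt76 and Septin5 had a value at time point 10 only on its otherwise left-out second array (0.67, 1.26 and -2.91). Counts of calls in cytoskeletal genes moved most with the arrays and the centring. In the mean, 17 calls became 9 with all 20 arrays and every spot, 33 without centring and 11 with a value at all 11 time points, where fewer genes are tested; over all genes 1467 became 3015 without centring. Among time points, 14 calls became 5 over all 9 time points with 2 arrays and 8 with a value on all 14 arrays, and 525 over all genes became 109 over the 9 time points. At single time points, 67 became 22 over the 9 time points and 207 without centring (4015 over all genes became 892 and 16153). In the steps, 20 became 6 over the 9 time points, 13 with a value on all 14 arrays and 9 without time point 4, where only the step out of time point 7 can be formed as defined (952 over all genes became 216 over the 9 time points and 366 without time point 4). That step alone already had 9 calls in the main fit, and 359 over all genes. Without centring, signs reversed for the means of Krt19 (0.021) and Krt24 (0.024) and for Tuba1b at time point 4 (0.020), and with all 20 arrays for Krt19 (0.16). Leaving out 1 time point or array gave 13 to 20 calls in the mean (1224 to 1643 over all genes), 10 to 14 among time points (421 to 575), 53 to 79 at single time points (3282 to 4277) and 15 to 22 in the steps (734 to 956). With the array mark as a replicate block, 14 genes differed among time points, and 66 single calls and 21 steps were made. The mark is not known to pair arrays. Under alternatives other than leaving out 1 time point or array, 124 values of single genes lost their call and 789 kept it. The causes were not tested.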
